A study of Mus musculus with 2 samples.

Results

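Neutrophils that carried many Ccl3 and Ccl4 transcripts were picked out of single-cell RNA profiles of liver leukocytes from mice with diet-induced steatohepatitis. A cell was called a neutrophil when it held at least 3 transcript counts (UMIs, molecules counted once by their molecular identifier) of Csf3r, Cxcr2, Il1r2 and Retnlg together. It also had to hold at most 1 UMI of the macrophage genes C1qa, C1qb and C1qc, at most 1 of the monocyte genes Ly6c2 and Fn1, and 0 of the lymphocyte genes Cd3e and Cd79a. A neutrophil with at least 5 UMIs of Ccl3 and Ccl4 together was called Ccl3/Ccl4-high, and the remaining ones are called other neutrophils. By this rule 472 Ccl3/Ccl4-high cells were found among 979 neutrophils and 12576 kept leukocytes, of which 185 came from recipients of Trem2-/- marrow and 287 from recipients of Trem2+/+ marrow. Both groups were male C57Bl6/J mice that had been lethally irradiated, given marrow of Trem2-/- mice or of their Trem2+/+ littermates, left for 6 weeks and then fed a methionine/choline-deficient diet for 4 weeks. No group without irradiation or without the diet was analysed here, and blood or tissue leukocytes of the recipient that survive irradiation keep an intact Trem2 gene in both groups. Living cells that stained for CD45 were combined in equal parts from 4 mice into 1 library per group, so the differences between genotypes have no replicate check, the mice of a pool cannot be separated, and the intervals given cover counting error only.

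Neutrophils are short-lived phagocytes that are made in the marrow, leave it under the control of the chemokine receptors CXCR2 and CXCR4, and enter inflamed tissue. CCL3 and CCL4 are small secreted chemokines, also called macrophage inflammatory proteins, that attract monocytes, macrophages, T cells and natural killer cells through receptors that include CCR1. Resting neutrophils hold little of either mRNA, and both are induced through NF-kB after sensing of microbes, damaged cells or cytokines. TREM2 is a lipid-sensing receptor of macrophages and not a receptor that neutrophils are known for.

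The libraries held 6362 barcodes with 25288032 UMIs (Trem2-/-) and 7012 barcodes with 27238586 UMIs (Trem2+/+). Ccl3/Ccl4-high neutrophils had medians of 2249 UMIs in the Trem2-/- library and 1952 in the Trem2+/+ library, against 2051 and 1778.5 in the other neutrophils of the same libraries. Since membership was set on raw UMIs, a deeper cell could pass more easily. The targeted gene fitted its labels: over the kept cells, Trem2 had 154 UMIs in the Trem2-/- library and 5478 in the Trem2+/+ library. Among Ccl3/Ccl4-high neutrophils it had 0 UMIs in the Trem2-/- library, where 0 of 185 cells allows a share of cells with a UMI of up to 1.62%, and 2 UMIs in the Trem2+/+ library. The libraries shared 56 barcode sequences, 2 of them members in 1 library, and no barcode was a neutrophil in both. Doublet calling with Scrublet marked 16 of 13374 barcodes (0.120%) and none of the 472 cells, so it had not worked, and cell pairs captured together may remain among them.

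The number of Ccl3 and Ccl4 UMIs per cell chose these neutrophils and is given as a description. The median member held 23 UMIs of the 2 genes together in the Trem2-/- library (range 5 to 228) and 26 in the Trem2+/+ library (range 5 to 176). Values ran on without a gap across the threshold: 20 cells of the Trem2-/- library held 5 or 6 UMIs and 25 held 3 or 4, and in the Trem2+/+ library 20 cells held 5 or 6 and 45 held 3 or 4. The cells just inside the threshold had 1199 CPM (UMIs of a gene per 1000000 UMIs of the pooled cells) of Sqstm1 in the Trem2-/- library and 2373 CPM in the Trem2+/+ library, and those just outside had 293 and 1007 CPM. Cd274 had 97.9 and 281 CPM inside, and 36.7 and 208 CPM outside. The neutrophil genes S100a8 and S100a9 were higher inside in the Trem2-/- library (32797 against 30782 CPM and 47409 against 41088 CPM). In the Trem2+/+ library they were lower inside (31795 against 40330 CPM and 41824 against 51209 CPM). Among the other neutrophils, 154 cells of the Trem2-/- library and 143 cells of the Trem2+/+ library held no UMI of either gene.

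**Figure D1:**
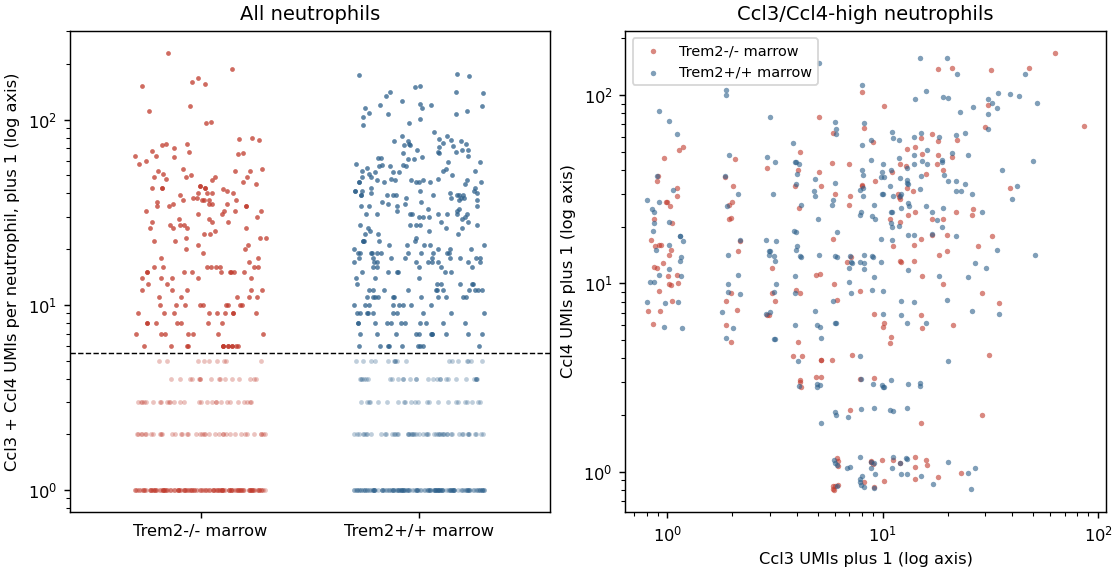
Left, Ccl3 plus Ccl4 UMIs plus 1 on a log axis in each neutrophil (points, spread sideways at random) of the Trem2-/- and Trem2+/+ libraries; the dashed line marks the threshold of 5 UMIs. Right, Ccl4 against Ccl3 UMIs, both plus 1 on log axes with a small random shift, in the 185 and 287 Ccl3/Ccl4-high cells; most hold both transcripts, and a few hold 1 of them.

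Both chemokines were found together in 130 of 185 members (70.3%) of the Trem2-/- library and in 228 of 287 (79.4%) of the Trem2+/+ library. Another 24 and 30 cells held Ccl3 without Ccl4, and 31 and 29 held Ccl4 without Ccl3. Each UMI stands for the 5' end of 1 transcript, so no division by length applies, and on that scale Ccl4 made up 71.2% and 72.6% of the summed UMIs of the pair. Ccl3 stood at 3752 CPM (95% counting interval 3577 to 3933) in Trem2-/- members and at 4728 CPM (4556 to 4904) in Trem2+/+ members. Ccl4 stood at 9274 CPM (8998 to 9556) and 12533 CPM (12253 to 12818). The other neutrophils had 163.5 and 324 CPM of Ccl3 and 133 and 168 CPM of Ccl4, which the threshold of the rule bounds from above.

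Although members made up 3.09% of the kept cells of the Trem2-/- library and 4.35% of those of the Trem2+/+ library, they held 13.2% and 19.6% of the Ccl3 and Ccl4 UMIs in them. Cells in a T cell gate (Cd3e) held 30.7% and 7.14%, and cells in a C1q macrophage gate held 17.2% and 32.6%; these gates were drawn after the data were seen. The pair summed to 13026 and 17261 CPM in members, against 2845 and 1501 CPM in the T cell gate and 1911 and 2182 CPM in the macrophage gate. The rule chose members by this pair, whereas the gates hold their cells whatever the level of the pair. These shares and levels are thus a description and not a comparison of like with like. Cells in a B cell gate had the pair at 103 and 219 CPM, 10.3% of them in each library had a UMI, and 0.754% and 1.62% reached 5 UMIs. Whether these UMIs came from the B cells or from stray RNA was not tested. The receptor gene Ccr1 was detected in 76.2% of Trem2-/- members and 67.9% of Trem2+/+ members. In the B cell gate, at a median depth of 2048 and 1818 UMIs, the shares with a Ccr1 UMI were 1.21% and 1.22%.

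The label was checked against markers. Each of 17 neutrophil markers was detected in members of both libraries, of which 6 are genes of the rule. S100a8, a subunit of the calcium-binding protein calprotectin, was found in 94.6% of Trem2-/- members and 95.1% of Trem2+/+ members. Hdc, the histamine-forming enzyme, was found in 83.8% and 79.8%, and Clec4d, a C-type lectin receptor, in 91.9% and 91.6%. The surface antigen gene Ly6g was found in 6.49% and 4.18% of members, in 6.94% and 5.34% of other neutrophils and in 0 of 663 and 0 of 739 cells of the B cell gate, which allows up to 0.452% and 0.406% of cells with a UMI. Of the genes of the rule, Csf3r, the receptor for granulocyte colony-stimulating factor, was found in 89.2% and 86.4% of members, Il1r2, a decoy receptor for interleukin 1, in 87.6% and 77.0%, and Cxcr2 in 64.9% and 62.4%. The secondary granule gene Camp, a marker of immature cells, was found in 0 of 185 Trem2-/- members, which allows a share of cells with a UMI of up to 1.62%, and in 1 of 287 Trem2+/+ members. Other neutrophils with a Camp UMI were 2 of 245 and 1 of 262. Ltf, another secondary granule gene, was found in 3 of 185 and 4 of 287 members, and in 2 of 245 and 2 of 262 other neutrophils.

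The 12 macrophage genes, led by Apoe, summed to 719 CPM in Trem2-/- members and 414 CPM in the other neutrophils there, and to 436 and 679 CPM in the Trem2+/+ library, against 6146 and 10960 CPM over the remaining kept cells. Of these 12 genes, 11 were detected in Trem2-/- members, 12 in Trem2+/+ members and 10 in the other neutrophils of each library. The monocyte list summed to 334 and 275 CPM in the Trem2-/- library and 224 and 326 CPM in the Trem2+/+ library. The dendritic list of 8 genes, led by the MHC class II gene H2-Aa, summed to 973 and 2024 CPM in the Trem2-/- library and 1643 and 1377 CPM in the Trem2+/+ library, with remaining cells at 4425 and 4863 CPM. Basophils are known to make both chemokines. Of 7 basophil markers, 6 were detected in members of each library, with 28 UMIs in the Trem2-/- library and 21 in the Trem2+/+ library, and 0 of 7 in other neutrophils. Their sums were 60.7 and 34.5 CPM in members, against 7.01 and 4.12 CPM over the remaining kept cells. At least 2 such UMIs were found in 2 members of the Trem2-/- library and 1 of the Trem2+/+ library. Their part in the results was not tested beyond the alternative named next. By the rule, Cd79a and Cd3e were at 0 in members of both libraries. Of 5 eosinophil genes 1 was detected in Trem2-/- members and 2 in Trem2+/+ members, led by Siglecf, with sums of 21.7 and 26.3 CPM, against 33.4 and 17.8 CPM in other neutrophils and 5.25 and 6.02 CPM over the remaining kept cells; Epx, Prg2 and Il5ra were at 0 in members of both libraries. The main shares, gene counts, list medians and 162 gene ratios below were also computed under alternatives. These left out the deepest neutrophils, neutrophils that held a UMI of other lineages, or those that held a basophil UMI. The remaining values below, such as ratios between genotypes in other neutrophils, were not recomputed in this way.

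Ccl3/Ccl4-high and other neutrophils were then compared gene by gene within each library, on summed CPM. In the Trem2-/- library 47 of 1296 genes with enough counts (3.63%) were at least 2-fold higher in Ccl3/Ccl4-high cells and 16 (1.23%) at least 2-fold lower. In the Trem2+/+ library 22 of 1356 (1.62%) were at least 2-fold higher and 2 (0.147%) at least 2-fold lower. Of 1216 genes measured in both libraries, 11 (0.905%) were at least 2-fold higher in both, and 0 at least 2-fold lower in both. The 11 include Ccl3 and Ccl4, which the rule chose, and the other 9 are Cstb, Ctsb, Cd63, Sqstm1, Bri3, Cd274, Pik3ap1, Plk2 and Rsad2.

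Cstb, an inhibitor of lysosomal cathepsins, had 745 CPM in Ccl3/Ccl4-high and 208.5 CPM in other neutrophils of the Trem2-/- library, a ratio of 1.84 on the log2 scale (1.54 to 2.14). In the Trem2+/+ library it had 600.4 and 293 CPM, a ratio of 1.04 on the log2 scale (0.76 to 1.32). Ctsb, the lysosomal protease cathepsin B, was higher by 1.41 and 1.07 (log2), and Cd63, a tetraspanin of lysosomes and granules, by 1.40 and 1.09. Sqstm1 encodes p62, an autophagy receptor that also feeds into NF-kB and NRF2 signalling. It had 1618 CPM in Ccl3/Ccl4-high and 664 CPM in other neutrophils of the Trem2-/- library, and 1772 and 782 CPM in the Trem2+/+ library. Its log2 ratios were 1.29 (1.11 to 1.46) and 1.18 (1.01 to 1.35), and it was detected in 71.4% against 47.8% of Trem2-/- cells and in 61.7% of 287 against 131 of 262 Trem2+/+ cells. Cells thinned to 1000 UMIs gave 55.4% against 30.7% and 48.9% against 39.0% for this gene, with 25.4% of B-gate cells in each library. Bri3, a small membrane protein of lysosomes, was higher by 1.17 and 1.27.

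Cd274 encodes PD-L1, the ligand of the inhibitory receptor PD-1. It had 338 CPM in Ccl3/Ccl4-high and 123 CPM in other neutrophils of the Trem2-/- library, and 341 and 148 CPM in the Trem2+/+ library. The log2 ratios were 1.45 (1.04 to 1.87) and 1.20. A Cd274 UMI was found in 31.9% against 15.5% of cells in the Trem2-/- library and in 27.9% against 15.3% in the Trem2+/+ library; B-gate cells stood at 13.4% and 9.61%. Pik3ap1, an adaptor that links Toll-like receptors to PI3 kinase, was higher by 1.32 and 1.43, Plk2, a stress-induced kinase, by 1.34 and 1.14, and Rsad2, the interferon-induced antiviral protein viperin, by 1.21 and 1.18. For Rsad2, 1 cell held 27.5% of the UMIs of Trem2+/+ members. The 9 genes were above 0 under each of the 15 alternatives in both libraries, with log2 ratios from 0.65 (Cd63) to 1.996 (Cstb).

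**Figure D2:**
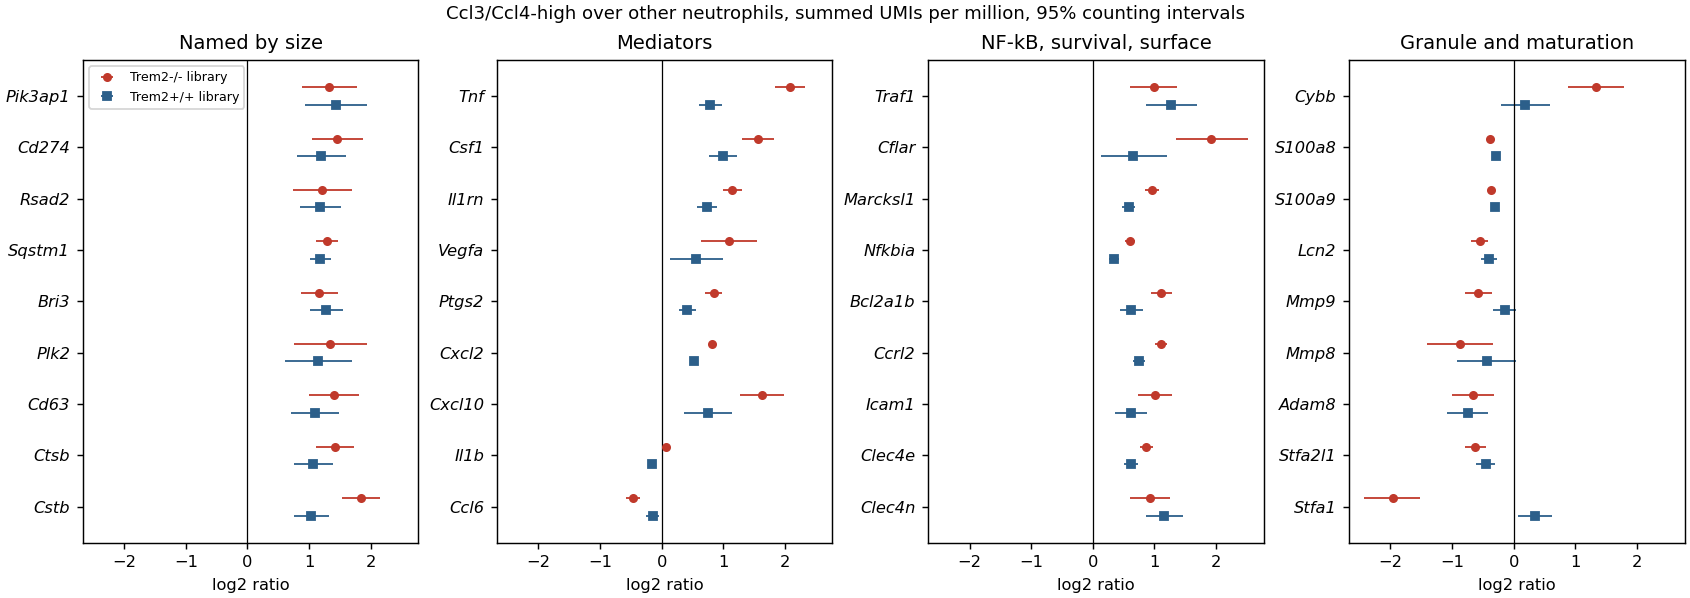
Log2 ratio of CPM in Ccl3/Ccl4-high over other neutrophils (x axis), with 95% counting intervals (bars), for 4 sets of genes (y axis) in the Trem2-/- library (circles) and the Trem2+/+ library (squares). The 9 genes of the first panel lie above 1 in both libraries, the secreted mediators other than Il1b and Ccl6 lie above 0, and the granule genes lie mostly below 0.

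Other secreted mediators were higher with Ccl3 and Ccl4. Of the list of 39 chemokines, cytokines and related mediators without Ccl3 and Ccl4, 17 passed the filter in the Trem2-/- library and 16 in the Trem2+/+ library; 13 and 11 of them were above 0, and 5 and 1 at least 2-fold higher. Over all genes tested, 47.3% and 41.0% were above 0, beside the 3.63% and 1.62% at least 2-fold higher given above. The medians were 0.75 and 0.61 on the log2 scale, against -0.03 and -0.07 over all genes tested. Tnf, the inflammatory cytokine, had 1228 CPM in Ccl3/Ccl4-high and 290.3 CPM in other neutrophils of the Trem2-/- library, a ratio of 2.08 on the log2 scale (1.83 to 2.33). In the Trem2+/+ library it had 1142 and 659 CPM, a ratio of 0.79 on the log2 scale (0.60 to 0.99). Csf1, the growth factor of macrophages, had 862 and 292 CPM in the Trem2-/- library and 890 and 445 CPM in the Trem2+/+ library, log2 ratios of 1.56 and 0.999.

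Cxcl2, a ligand of CXCR2 that attracts neutrophils, was abundant in both kinds of cell: 29646 CPM in Ccl3/Ccl4-high and 16899 CPM in other neutrophils of the Trem2-/- library, and 27233 and 18963 CPM in the Trem2+/+ library. Its log2 ratios were 0.81 and 0.52. Il1rn, the interleukin-1 receptor antagonist, was higher by 1.15 and 0.73, Ptgs2, the inducible cyclooxygenase, by 0.84 and 0.41, and Vegfa, an angiogenic factor, by 1.09 and 0.57. Il1b, which encodes interleukin 1 beta, did not share this: it had 17387 and 16562 CPM in the Trem2-/- library and 16175 and 17917 CPM in the Trem2+/+ library, log2 ratios of 0.07 and -0.15. Ccl6, a chemokine that mouse myeloid cells make, was lower in Ccl3/Ccl4-high cells of both libraries, with log2 ratios of -0.47 (-0.58 to -0.36) and -0.14 (-0.25 to -0.03). Cxcl10, an interferon-induced chemokine, was higher by 1.62 and 0.75, but 1 cell held 42.6% of its UMIs in Trem2-/- members.

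Promoters of 3 of these chemokine and cytokine genes are shown because NF-kB, which induces them, binds a known motif. The 250 bases before the start site are from RefSeq (GRCm38.p6), written 5' to 3' on the strand of the gene, with capitals marking matches on either strand to GGG, any 2 bases and then TTTCC; no matches overlapped.
Ccl3, chr11:83649379-83649628, minus strand: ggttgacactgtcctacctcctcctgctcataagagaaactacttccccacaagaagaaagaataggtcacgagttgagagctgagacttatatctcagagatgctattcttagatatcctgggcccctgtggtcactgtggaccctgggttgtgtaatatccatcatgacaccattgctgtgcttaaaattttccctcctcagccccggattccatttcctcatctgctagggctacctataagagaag
Csf1, chr3:107760470-107760719, minus strand: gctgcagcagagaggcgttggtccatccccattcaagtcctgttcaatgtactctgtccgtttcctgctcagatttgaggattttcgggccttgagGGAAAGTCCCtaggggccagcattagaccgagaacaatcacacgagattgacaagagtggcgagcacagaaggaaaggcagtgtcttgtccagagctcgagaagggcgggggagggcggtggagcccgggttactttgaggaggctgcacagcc
Cxcl2, chr5:90903649-90903898, plus strand: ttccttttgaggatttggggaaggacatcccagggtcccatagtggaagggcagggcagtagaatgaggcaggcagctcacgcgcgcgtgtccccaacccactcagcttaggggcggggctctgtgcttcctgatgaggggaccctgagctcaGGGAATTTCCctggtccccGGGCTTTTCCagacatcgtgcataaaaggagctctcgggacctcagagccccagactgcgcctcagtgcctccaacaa
Cxcl2 held 2 matches, which begin at -97 and -78 from the start site, and Csf1 held 1 at -154. The Ccl3 window held no match to this pattern, and looser forms of the motif were not searched. Over windows of 300 bases, from 250 before to 50 after each start, 1.63% of 32851 promoters held the motif, against 8 of 32 windows of the mediator list and 6 of 37 windows (16.2%) of the NF-kB list below. The table matched 8 of the 11 genes that are at least 2-fold higher in both libraries; without Ccl3 these had 8 windows, 0 of which held the motif. The AP-1 motif TGANTCA, read on both strands, was in 7.81% of all windows, 8 of 32 windows of the mediator list and 1 of the 8.

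Genes that NF-kB induces, its inhibitors and its signalling adaptors were higher as a group, with small ratios. Of 37 listed genes 26 passed the filter in the Trem2-/- library and 28 in the Trem2+/+ library, and 25 and 23 of these were above 0; 2 and 1 were at least 2-fold higher and none was at least 2-fold lower in either library. The list medians were 0.41 and 0.31. The shares of all genes above 0 were 47.3% and 41.0%. Those at least 2-fold higher were 3.63% and 1.62%, and at least 2-fold lower 1.23% and 0.147%. Nfkbia, the inhibitor that NF-kB induces to stop its own activity, had 5752 and 3797 CPM in the Trem2-/- library, a ratio of 0.60 on the log2 scale (0.52 to 0.68), and 5348 and 4232 CPM in the Trem2+/+ library, a ratio of 0.34 on the log2 scale (0.26 to 0.42). Traf1, an adaptor of the tumour necrosis factor receptor family, was higher by 0.99 and 1.27, Sod2, the mitochondrial superoxide dismutase, by 1.09 and 0.76, and Marcksl1, an actin-binding protein, by 0.96 and 0.58. Tnfaip3, which encodes the feedback inhibitor A20, was higher by 0.42 and 0.39. Cflar, which encodes the caspase-8 inhibitor c-FLIP, was higher by 1.92 (1.34 to 2.53) and 0.65 (0.13 to 1.20).

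Survival and death genes had list medians of 0.60 and 0.59. Above 0 were 8 genes of each library, out of 11 that passed for Trem2-/- and 12 for Trem2+/+. Of those that passed, 4 and 0 were at least 2-fold higher. Over all genes tested, 47.3% and 41.0% were above 0, and 3.63% and 1.62% at least 2-fold higher. Bcl2a1b, of the A1 family of BCL-2 proteins that keep neutrophils alive, was higher by 1.11 and 0.62; its copies are near-identical, so reads may be split among them. Bcl2l11, which encodes the death-promoting BIM, was higher too, by 1.03 and 0.60. Bax, which promotes death as well, did not pass the filter in the Trem2-/- library and was higher by 0.93 (0.30 to 1.59) in the Trem2+/+ library. Higher also was the stress gene Gadd45b, by 0.60 and 0.79. Mcl1, a survival protein on which neutrophils depend, had 3219 and 3005 CPM in the Trem2-/- library and 3270.2 and 3334 CPM in the Trem2+/+ library, log2 ratios of 0.10 and -0.03. Gadd45a, the related DNA-damage gene, was lower in both libraries, at -0.37 and -0.96.

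The list of receptors, adhesion molecules and other surface proteins had medians near 0, at 0.16 and 0.05, while single genes were higher. Ccrl2, an atypical receptor that presents the chemoattractant chemerin, had 5485 and 2546 CPM in the Trem2-/- library and 4428 and 2624 CPM in the Trem2+/+ library, log2 ratios of 1.11 and 0.76. Icam1, an adhesion molecule, was higher by 1.01 and 0.61, Clec4e, which encodes the lectin Mincle, by 0.87 and 0.61, Clec4n, which encodes dectin-2, by 0.93 and 1.16, and Ptafr, the receptor for platelet-activating factor, by 0.98 and 0.69. Cxcr4, the receptor that retains neutrophils in marrow and marks aged cells, had log2 ratios of 0.23 (-0.01 to 0.48) and -0.06 (-0.30 to 0.17). Trem1, an activating receptor of neutrophils, was lower in both libraries, at -0.39 and -0.32.

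The list of lipid, iron and redox genes also holds lysosomal genes and the autophagy receptor gene Sqstm1. Its median was the farthest above 0 in the Trem2-/- library, 0.76, and stood at 0.47 in the Trem2+/+ library. Of 22 genes that passed in each library, 20 and 18 were above 0, against 47.3% and 41.0% of all genes tested. At least 2-fold higher were 8 and 5, against 3.63% and 1.62% of all genes tested. Cstb, Ctsb, Cd63 and Sqstm1, described above, are among these 8 and 5. The ferritin subunits, which store iron, were abundant: Fth1 had 26947 and 17032 CPM in the Trem2-/- library and 27180 and 18045 CPM in the Trem2+/+ library, log2 ratios of 0.66 and 0.59. Ftl1 was higher by 1.03 and 0.75. Hmox1, which encodes the haem-degrading enzyme, had 279.5 and 142 CPM in the Trem2-/- library and 393 and 135 CPM in the Trem2+/+ library, log2 ratios of 0.98 and 1.55. Txnrd1, a thioredoxin reductase, was higher by 1.08 and 0.92, Slc7a11, the cystine transporter, by 0.86 and 0.36, Prdx1, a peroxide-reducing enzyme, by 1.78 and 0.50, and Nfe2l2, which encodes NRF2, a regulator of such genes, by 0.65 and 0.35. For Prdx1, 1 cell held 37.3% of the UMIs of the other neutrophils in the Trem2-/- library and 1 cell 45.6% in the Trem2+/+ library. Apoe, a lipoprotein component that macrophages make in quantity, lay on opposite sides: it had 433 and 185 CPM in the Trem2-/- library, a ratio of 1.23 on the log2 scale (0.88 to 1.57), and 189 and 437 CPM in the Trem2+/+ library, a ratio of -1.21 on the log2 scale (-1.55 to -0.88). Without the highest cell of each pool the levels were 352 and 142 CPM and 183 and 247 CPM. With a neutrophil gate of 5 UMIs the ratio in the Trem2+/+ library was -0.27. Without Apoe the macrophage list summed to 286 CPM in Ccl3/Ccl4-high and 229 CPM in other neutrophils of the Trem2-/- library, and to 247 and 241 CPM in the Trem2+/+ library.

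**Figure D3:**
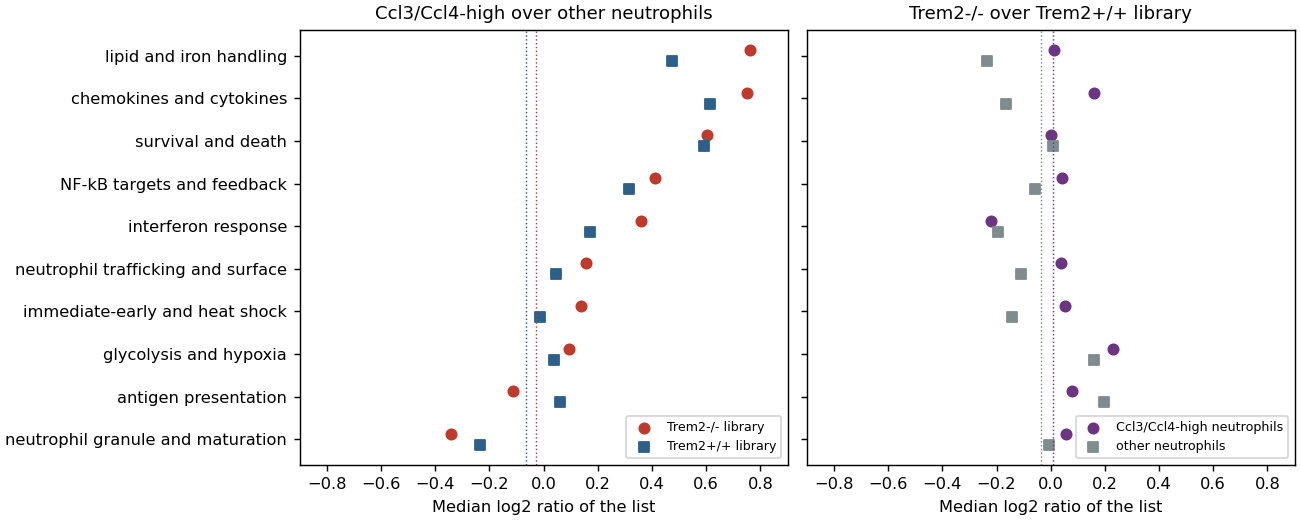
Median log2 ratio of the members of 10 gene lists that passed the filter (x axis), without the genes of the rule. Left, Ccl3/Ccl4-high over other neutrophils in the Trem2-/- library (circles) and the Trem2+/+ library (squares); right, Trem2-/- over Trem2+/+ library in Ccl3/Ccl4-high (circles) and other neutrophils (squares); dotted lines mark the medians over all genes tested. On the left the medians run from 0.76 (lipid and iron genes) to -0.34 (granule genes) in the Trem2-/- library and from 0.61 (chemokines and cytokines) to -0.23 (granule genes) in the Trem2+/+ library; on the right the Ccl3/Ccl4-high medians run from -0.22 for interferon genes to 0.23 for glycolysis and hypoxia genes.

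Granule and maturation genes ran the other way. Of 18 that passed in each library, 5 were above 0 in the Trem2-/- library and 5 in the Trem2+/+ library, with medians of -0.34 and -0.23. Over all genes tested, 47.3% and 41.0% were above 0, with medians of -0.03 and -0.07. S100a8 had 33485 CPM in Ccl3/Ccl4-high and 43826 CPM in other neutrophils of the Trem2-/- library, a ratio of -0.39 on the log2 scale (-0.42 to -0.36). In the Trem2+/+ library it had 34989 and 42721 CPM, a ratio of -0.29 on the log2 scale (-0.32 to -0.26). Its partner S100a9 had -0.37 and -0.30, Lcn2, a siderophore-binding granule protein, -0.55 and -0.40, and Adam8, a membrane protease, -0.66 and -0.75. Stfa2l1, a stefin of mouse neutrophils with near-identical copies, had -0.62 and -0.46. Mmp9 and Mmp8, the granule gelatinase and collagenase, were lower in the Trem2-/- library (-0.57 and -0.86), with intervals of -0.33 to 0.04 and -0.93 to 0.04 in the Trem2+/+ library. The 5 genes above 0 in the Trem2-/- library had intervals above 0. They were Cybb, the catalytic subunit of the NADPH oxidase, at 1.33 (0.88 to 1.80), its other subunits Cyba (0.44), Ncf1 (0.53) and Ncf4 (0.38), and Lyz2, a lysozyme (0.55). In the Trem2+/+ library Cybb had 0.19 (-0.21 to 0.58), Cyba 0.08, Ncf1 0.31, Ncf4 0.12 and Lyz2 -0.09.

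Of the remaining lists, interferon genes leaned above the background in both libraries, and the others were close to it or mixed. Interferon-response genes had medians of 0.36 and 0.17, with 10 of 13 and 13 of 18 genes above 0 and 2 at least 2-fold higher in each library. Over all genes tested, 47.3% and 41.0% were above 0, and 3.63% and 1.62% at least 2-fold higher. Isg15, a ubiquitin-like interferon target, had log2 ratios of 0.67 (0.36 to 0.97) and 0.19 (-0.05 to 0.43). Immediate-early and heat-shock genes, which tissue dissociation also induces, had medians of 0.14 and -0.01. Within that list Dusp2, a phosphatase of MAP kinases, was higher by 1.14 and 0.89, Nr4a3, an orphan nuclear receptor, by 0.84 and 0.79, and Jun, an AP-1 subunit, by 0.97 and 0.60. Glycolysis and hypoxia genes had medians of 0.09 and 0.04; Hif1a, the hypoxia regulator, stood at 0.50 and 0.77, and Slc2a3, a glucose transporter, at -0.67 and -0.51. Antigen-presentation genes had medians of -0.11 and 0.06, and the first of these turned to 0.42 without neutrophils of over 5000 UMIs.

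Across neutrophils, several of these genes were graded by the number of Ccl3 and Ccl4 UMIs. Cells with 20 or more (100 in the Trem2-/- library, 163 in the Trem2+/+ library) were set beside cells with 5 to 19 (85 and 124), 1 to 4 (91 and 119) and 0 (154 and 143). Csf1 stood at 317, 258, 638 and 1054 CPM from 0 to 20 or more UMIs in the Trem2-/- library and at 347, 553, 552 and 1111 CPM in the Trem2+/+ library. Cd274 stood at 92.2, 166, 235 and 427 CPM and at 132, 166, 303 and 365 CPM, so its order followed that of the bins in both libraries. Sqstm1 followed it as well, at 498, 892, 1117 and 2049 CPM and at 498, 1093, 1736 and 1795 CPM.

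**Figure D4:**
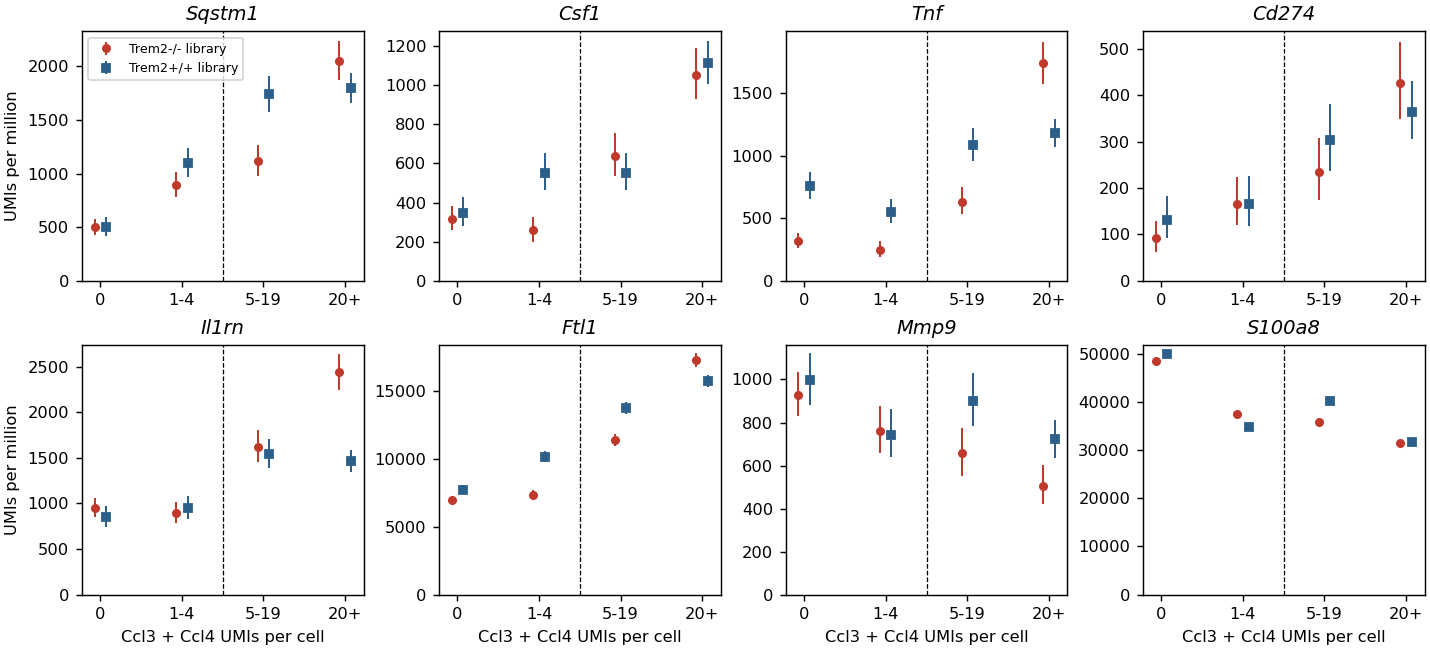
CPM (y axes, from 0) of 8 genes in neutrophils grouped by their Ccl3 plus Ccl4 UMIs (x axis), in the Trem2-/- library (circles) and the Trem2+/+ library (squares), with exact Poisson 95% intervals (bars); the dashed line marks the threshold of 5. Sqstm1, Cd274 and Ftl1 lie in the order of the bins in both libraries, and S100a8 is highest in the cells with 0.

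S100a8 ran against it, with 48443, 37476, 35839 and 31465 CPM in the Trem2-/- library and 49877, 34840, 40096 and 31640 CPM in the Trem2+/+ library. Cells with 1 to 4 UMIs were thus closer in S100a8 to the Ccl3/Ccl4-high cells than to the cells with 0. Tnf stood at 320, 250, 633 and 1739 CPM in the Trem2-/- library and at 759, 549, 1084 and 1179 CPM in the Trem2+/+ library. The median depth of these bins was 1966, 2128, 2183 and 2305 UMIs in the Trem2-/- library and 1788, 1750, 1853 and 2049 UMIs in the Trem2+/+ library.

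Between the marrow genotypes, Ccl3/Ccl4-high cells were the smaller share of neutrophils in the Trem2-/- library: 43.0% (exact binomial 38.3 to 47.9) of 430 neutrophils, against 52.3% (48.0 to 56.5) of 549 in the Trem2+/+ library, a ratio of -0.28 on the log2 scale (-0.48 to -0.09). As a share of all kept cells they made up 3.09% (2.67 to 3.57) and 4.35% (3.87 to 4.87), a ratio of -0.49 on the log2 scale (-0.75 to -0.23). Other neutrophils made up 4.10% and 3.97% of kept cells, a ratio of 0.05 on the log2 scale (-0.20 to 0.29). The median depth of members was higher in the Trem2-/- library, as given above. Neutrophils with at least 1000 UMIs, 415 of 430 and 510 of 549, were also thinned to 1000 UMIs, and those below were left out. After thinning, the threshold was reached by 140 of 415 Trem2-/- cells (33.7%) and by 239 of 510 Trem2+/+ cells (46.9%). With 1 pool of 4 mice per genotype, a difference between genotypes and one between pools cannot be told apart.

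Gene by gene, members of the 2 genotypes were close. Of 1288 genes with enough counts, 42 (3.26%) were at least 1.5-fold higher in the Trem2-/- library and 40 (3.11%) at least 1.5-fold lower, with a median log2 ratio of 0.01. In the other neutrophils 44 of 1364 (3.23%) were higher and 56 (4.11%) lower. Tnf had 1228 CPM in Trem2-/- members and 1142 CPM in Trem2+/+ members, a ratio of 0.11 on the log2 scale (-0.06 to 0.27), and Csf1 had 862 and 890 CPM, a ratio of -0.05 on the log2 scale (-0.24 to 0.14). In the other neutrophils Tnf had 290.3 and 659 CPM, a ratio of -1.18 on the log2 scale (-1.46 to -0.91), and Csf1 292 and 445 CPM, a ratio of -0.61 on the log2 scale (-0.90 to -0.32).

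Interferon-response genes were mixed between the genotypes, with a list median of -0.22 in members, against 0.01 over all genes. Of 17 that passed, 7 were above 0, 4 had an interval above 0 and 6 an interval below 0. At least 1.5-fold lower were 4, and 0 were at least 1.5-fold higher. Over all 1288 genes tested in members, 51.3% were above 0, 151 had an interval above 0 and 148 an interval below 0. The shares of these lower and higher by that fold were 3.11% and 3.26%. The other neutrophils had 2 of 13 above 0, 4 lower by that fold, 0 higher and a median of -0.20. Gbp2, a guanylate-binding protein, had 0.56, and the regulator Irf1 had 0.43 in members. Rsad2 had 227 CPM in Trem2-/- members and 485 CPM in Trem2+/+ members, a ratio of -1.09 on the log2 scale (-1.43 to -0.77), and -1.12 in other neutrophils. Slfn5, a schlafen-family gene, had -1.22 (-1.85 to -0.62), Isg20, an antiviral exonuclease, -0.91 (-1.46 to -0.38), and Ifit3, an antiviral binding protein, -0.74 (-1.37 to -0.14). Ifit3 was found in 15 members of each library (8.11% and 5.23%), and 1 cell held 23.5% of its UMIs in Trem2-/- members and 1 cell 30.7% in Trem2+/+ members. Isg15 had 442 and 554 CPM, a ratio of -0.33 on the log2 scale (-0.59 to -0.07). Epsti1, another interferon-induced gene, had -1.92, but 1 cell of 11263 UMIs held 68.6% of its UMIs in Trem2+/+ members; without the highest cell of each pool its level was 59.2 CPM in Trem2-/- members and 83.8 CPM in Trem2+/+ members. Of the other lists, chemokines and cytokines stood at a median of 0.16 and glycolysis and hypoxia genes at 0.23, and the 5 lists of NF-kB, survival, surface, granule, and lipid and iron genes stood between 0.00 and 0.06.

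**Figure D5:**
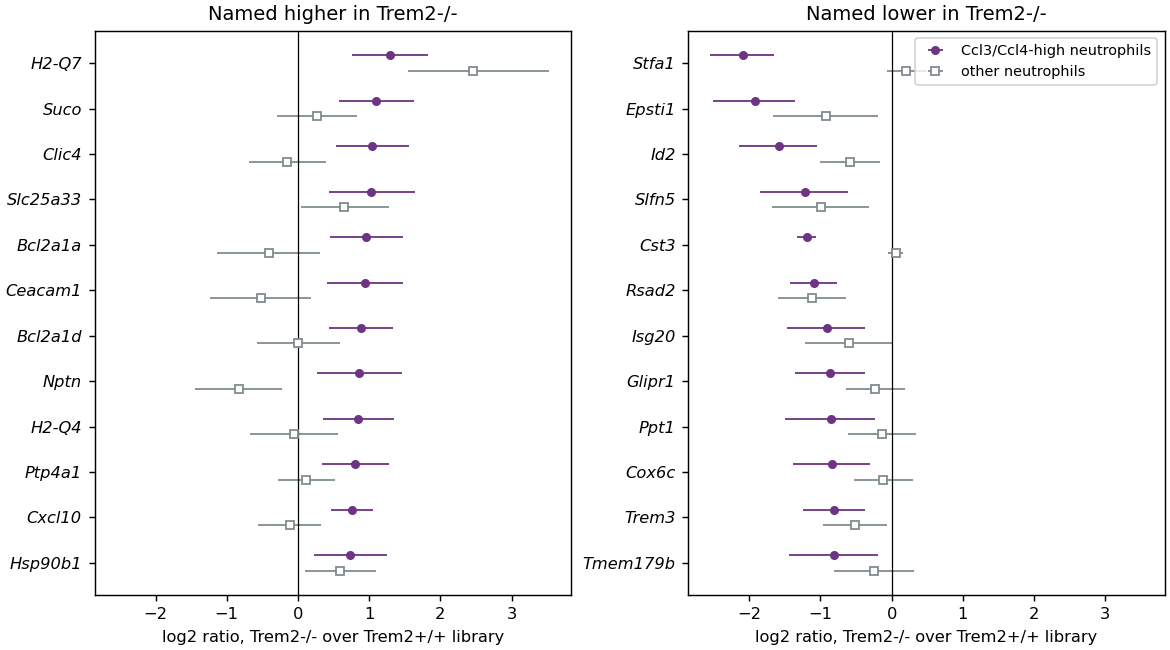
Log2 ratio of CPM, Trem2-/- over Trem2+/+ library (x axis), with 95% counting intervals (bars), for the 12 genes with the highest and the 12 with the lowest ratio in Ccl3/Ccl4-high neutrophils (filled circles), beside the other neutrophils (open squares). Rsad2, Slfn5 and H2-Q7 lie on the same side in both kinds of neutrophil, and Nptn lies on opposite sides. Slfn5, H2-Q7 and some further genes shown did not pass the filter in other neutrophils.

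The genes highest in Trem2-/- members were of mixed function. H2-Q7, a non-classical MHC class I gene of a family of near-identical copies, had 193 CPM in Trem2-/- members and 79.0 CPM in Trem2+/+ members, a ratio of 1.29 on the log2 scale (0.77 to 1.83). In other neutrophils it did not pass the filter, and its ratio there was 2.46, with 120.1 and 21.8 CPM. Suco had 180 CPM in Trem2-/- members and 83.9 CPM in Trem2+/+ members. The chloride channel gene Clic4 (1.04), the mitochondrial pyrimidine carrier Slc25a33 (1.03), the adhesion molecule gene Ceacam1 (0.94), Nptn (0.85), H2-Q4 (0.84) and Ptp4a1 (0.81), a phosphatase gene, followed, with Hsp90b1 (0.74), which encodes a chaperone of the endoplasmic reticulum. Bcl2a1a had 0.96 (0.44 to 1.48) and Bcl2a1d 0.88 (0.43 to 1.33), with -0.41 and 0.01 in other neutrophils, both from the family of near-identical copies. Bcl2a1a did not pass the filter in other neutrophils. Cxcl10 had 483 CPM in Trem2-/- members and 286 CPM in Trem2+/+ members, a ratio of 0.76 on the log2 scale, which was -0.06 with a threshold of 10 UMIs and -0.07 with a neutrophil gate of 5 UMIs.

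Beside the interferon genes, the lowest ratios in Trem2-/- members included Stfa1, a stefin with near-identical copies, at 108 CPM in Trem2-/- members and 461 CPM in Trem2+/+ members, a ratio of -2.09 on the log2 scale. It was found in 14 and 23 cells, and 1 cell held 48.0% of the UMIs of the Trem2-/- members. Cst3, which encodes the secreted protease inhibitor cystatin C and is abundant in dendritic cells and macrophages, had 1276 and 2918 CPM, a ratio of -1.19 on the log2 scale, which was -0.22 without neutrophils of over 5000 UMIs; 1 cell held 22.1% and 1 cell 29.7% of these UMIs. Id2, a transcriptional regulator that lymphoid and dendritic cells use, had -1.58, which was 0.13 without neutrophils of over 5000 UMIs. Trem3, in the same gene cluster as Trem2, had 141 and 247 CPM, a ratio of -0.81 on the log2 scale (-1.25 to -0.38), and -0.51 (-0.96 to -0.07) in other neutrophils. Glipr1 (-0.86), the lysosomal thioesterase gene Ppt1 (-0.85), the respiratory-chain gene Cox6c (-0.83) and Tmem179b (-0.81) had other-neutrophil ratios between -0.25 and -0.12.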

How the data were processed

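RNA of viable CD45+ liver cells was profiled in 1 pool of 4 mice per marrow genotype with a droplet 5' assay. The authors deposited UMI counts per gene and barcode. The file headers name Cell Ranger 5.0.1 as their source, and mm10 is the build in the submitters' processing notes. Starting from these counts, barcodes were kept from 200 detected genes upwards if mitochondrial genes took no more than 10% of their UMIs, and neutrophils were gated as in the report. The members, the gene lists and the rule were chosen with earlier results of these data known; the gates for other cell classes, many of the genes described within lists, and the alternatives without cells of over 5000 UMIs, without basophil UMIs and with genotypes matched in depth were chosen after the data were seen.

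UMIs were summed over the cells of a group in a library and divided by the group's total (CPM). A gene was compared when it had a mean of at least 50 CPM and at least 100 UMIs over both groups. Genes named by rule were, after Ccl3 and Ccl4, up to 15 in each direction by the smaller of the libraries' ratios among those at least 2-fold apart in both, and for genotypes 12 in each direction at least 1.5-fold apart with an interval that leaves out 0. Ribosomal, mitochondrial, haemoglobin, hepatocyte, immunoglobulin and predicted genes, and genes far higher in the remaining kept cells, were left out of these rankings; listed genes could be named at any size. With 1 library per genotype no test was made: ratios have exact conditional binomial intervals, levels exact Poisson intervals and shares exact Clopper-Pearson intervals, all 95%, and ratios of shares a large-sample interval. A share of 0 allows up to 3 counts of the total. Intervals cover counting error only. Shares of cells were also computed after thinning to 1000 UMIs, without cells that held fewer. Symbols on more than 1 line of the files, such as Ptp4a1, were read from the line with the most UMIs, and 5 listed symbols were not used here. Scripts were tested on simulated data and ran in Python 3.11.15 with numpy 2.4.6, scipy 1.17.1, pandas 2.3.3, matplotlib 3.10.9 and scanpy 1.11.5. Some listed genes are not reported here.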

Additional observations from a re-analysis of the deposited data

Results flagged for a closer look

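Several genes lay on opposite sides of 0 in the 2 libraries or in the 2 kinds of neutrophil, each with a counting interval that excludes 0. None of these differences was tested, since each rests on 1 library per genotype. Apoe had a log2 ratio of Ccl3/Ccl4-high over other neutrophils of 1.23 in the Trem2-/- library and -1.21 in the Trem2+/+ library, and a ratio of Trem2-/- over Trem2+/+ of 1.20 in Ccl3/Ccl4-high and -1.24 in other neutrophils. The 1.20 was 0.13 at matched depth, and the -1.21 was -0.27 with a neutrophil gate of 5 UMIs; 1 cell held 43.9% of its UMIs in the other neutrophils of the Trem2+/+ library. Cxcl1, a ligand of CXCR2, had ratios of high over other of -0.93 (Trem2-/-) and 0.85 (Trem2+/+), and of Trem2-/- over Trem2+/+ of -0.79 in Ccl3/Ccl4-high and 0.99 in other neutrophils. It was detected in 10 and 10 cells of the Trem2-/- library and in 13 and 6 of the Trem2+/+ library. Stfa1 had ratios of high over other of -1.96 (Trem2-/-) and 0.34 (Trem2+/+), and the 0.34 was -0.21 with a threshold of 10 UMIs and -0.53 at matched depth. Nptn, which encodes the cell adhesion molecule neuroplastin, had ratios of Trem2-/- over Trem2+/+ of 0.85 in Ccl3/Ccl4-high and -0.83 in other neutrophils. The ratios were small for Egr1, an immediate-early transcription factor, with high over other at 0.31 (Trem2-/-) and -0.18 (Trem2+/+). They were small for Il1b as well, with high over other at 0.070 (Trem2-/-) and -0.15 (Trem2+/+), and Trem2-/- over Trem2+/+ at 0.10 in Ccl3/Ccl4-high and -0.11 in other neutrophils.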

How the results depend on the processing

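No paired analysis was possible because each genotype is 1 library, and for the same reason no library could be left out. The log2 ratio of the Ccl3/Ccl4-high share of neutrophils, Trem2-/- over Trem2+/+, lay between -0.47 and -0.22 and that of kept cells between -0.62 and -0.44 in the alternatives run. Genes at least 2-fold apart in the Trem2-/- library numbered 63, and 108 (50 higher, 58 lower) with a Ccl3 and Ccl4 threshold of 2423 CPM, 38 (32 higher, 6 lower) with high and other cells matched in depth and 2143 (846 higher, 1297 lower) with no filter on low genes. In the Trem2+/+ library they numbered 24, and 56 (46 higher, 10 lower) against other neutrophils with 0 Ccl3 and Ccl4 UMIs and 1971 (729 higher, 1242 lower) with no filter. Genes at least 1.5-fold apart between genotypes numbered 82, and 3691 (1874 higher, 1817 lower) with no filter, where genes of a few UMIs enter. The 3 counts and the 2 shares gave 62 further pairs of a result and an alternative. Each of these stayed within 1.5 times the count or within the interval of the share.

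Of 162 gene ratios, 7 changed sign in some alternative, and the cause was not tested. High over other, these were Stfa1 in the Trem2+/+ library, at -0.21 with a threshold of 10 UMIs and -0.53 at matched depth; and, in the Trem2-/- library, Cxcl1 at 0.20 at matched depth, Egr1 at -0.054 without other-lineage UMIs, and Il1b at -0.11 and -0.042 with thresholds of 3 and 10, -0.073 without other-lineage UMIs, -0.095 without cells of over 5000 UMIs, -0.058 against others with 0 and -0.055 as a mean over cells. Trem2-/- over Trem2+/+, Cxcl1 was 0.022 with a gate of 5 UMIs, Cxcl10 -0.058 with a threshold of 10 and -0.073 with a gate of 5, and Id2 0.13 without cells of over 5000 UMIs. Of 30 list medians 2 changed sign, both in the Trem2-/- library: antigen presentation was 0.27 with a threshold of 3, 0.27 with a gate of 5, 0.24 without other-lineage UMIs, 0.42 without cells of over 5000 UMIs, 0.59 against others with 0, 0.32 at matched depth and 0.0215 as a mean over cells, and immediate-early genes -0.0076 as a mean over cells. At these depths, genes under the filter were left out of the list medians and of the counts, apart from the counts with no filter.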
